A study of Homo sapiens with 16 samples.

Results

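The effect of adding the CDK4/6 inhibitor palbociclib (PB) to retinoic acid (RA) was measured by RNA sequencing in SK-N-BE(2)C, an established human neuroblastoma line of the adrenergic type that carries amplified MYCN. The comparison used 8 of the 16 samples of the series, chosen by their labels: 4 replicates given 10 µM RA and 4 replicates given 10 µM RA together with 1 µM PB (PB+RA). Cells of both groups therefore received the retinoid, for 5 days, and the groups differed by PB. The remaining 8 samples, 4 with the vehicle DMSO and 4 with 1 µM PB alone, were part of the same fit. They therefore entered the gene filter and the estimate of the spread behind every p. Their own levels served to ask whether the same inhibitor changed a gene differently with and without the retinoid. All samples came from a single line, and no other line or PB dose was compared here.

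CDK4 and CDK6, with their D-type cyclin partners, phosphorylate the pocket protein RB in G1 and thereby free E2F factors to switch on genes of S phase. Hypophosphorylated pocket proteins also assemble the DREAM complex with the MuvB core, which silences S phase genes through E2F sites and mitotic genes through the cell cycle homology region (CHR) in their promoters, while MYBL2 and FOXM1 take over the MuvB core later in the cycle and activate mitotic genes. RA binds RAR and RXR nuclear receptors, and in adrenergic neuroblastoma cells it is used as a differentiating agent. The comparison asks what CDK4/6 inhibition changes in cells that also receive the retinoid.

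Values are CPM, the count of a gene divided by the total count of its sample on the usual scale, and fold changes are log2(PB+RA over RA) from a fit that compares samples with the same replicate number. A gene was called higher or lower when its adjusted p was below 0.05 and its log2 fold change above 0.5 in size, and every p was computed by edgeR (quasi-likelihood) and adjusted by Benjamini-Hochberg over all tested genes. The RA samples held 22.2 to 26.5 M counts and the PB+RA samples 19.5 to 25.2 M, so that a count of 0 in 1 sample allows up to 0.113 to 0.154 CPM, for counting error only. Of 15415 genes tested, 2517 (16.3%) were higher and 2349 (15.2%) were lower in PB+RA than in RA, 31.6% in all, and their median log2 fold change was 0.00. The CPM of both groups did not overlap for 46.7% of tested genes. Replicates 1 and 2 lay apart from replicates 3 and 4 along the third principal component (10.8% of the variance) in every group. The labels do not say what separates them. Replicates 1 and 2 alone gave 2622 higher and 2469 lower genes, and replicates 3 and 4 alone gave 2153 and 2065. Of the markers used to check the cell type, all 8 adrenergic ones averaged at least 51.8 CPM in both groups, whereas SOX10, which defines Schwann cells and melanocytes, had 0 counts in all 8 samples. In bulk RNA, fewer cells of a kind and less RNA per cell cannot be told apart.

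Most of the 10 largest falls were in genes of the G1/S transition, DNA replication and mitosis. FAM111B, a gene of the FAM111 protease family, went from 27.8, 25.2, 27.3 and 25.4 CPM in RA replicates 1 to 4 to 1.71, 1.77, 3.72 and 3.89 CPM in PB+RA (log2 fold change -3.31 ± 0.21 SE, adjusted p = 1.3e-08). E2F2, an activating E2F factor (chromosome 1, 23832930 to 23857725, minus strand, GRCh37), went from 38.1, 43.2, 35.9 and 35.1 CPM to 4.13, 3.63, 5.21 and 4.10 CPM (-3.17 ± 0.10 SE, adjusted p = 1.4e-15). In both genes every PB+RA value lay far below every RA value. The other 8 of the 10 largest falls were POGLUT3 (-3.07), WDR76 (-3.04), the mitotic kinase AURKB (-2.89), the proliferation marker MKI67 (-2.74), CDK2 (-2.73), CCNE2 (-2.72), the thymidylate synthase TYMS (-2.67) and CDCA3 (-2.66), which overlaps GNB3 (13.8 CPM) on the opposite strand. MKI67 (chromosome 10, 129894923 to 129924687, minus strand, GRCh37) is transcribed in cycling cells and measured 419, 448, 402 and 361 CPM in RA and 59.8, 42.6, 63.0 and 86.9 CPM in PB+RA (-2.74 ± 0.17 SE, adjusted p = 8.0e-08). The highest PB+RA sample of this gene, replicate 4, was far below the lowest RA sample, also replicate 4.

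The largest rises came from another set of genes. TAFA3, which encodes a secreted neuronal peptide of the TAFA family, went from 1.43, 3.56, 1.09 and 1.31 CPM to 20.9, 35.0, 12.4 and 12.7 CPM (3.45 ± 0.14 SE, adjusted p = 2.8e-14), and RA replicate 2 was the highest of its group. The acid-sensing channel subunit ASIC4 (chromosome 2, 220378892 to 220403494, plus strand, GRCh37) was the most abundant of the 10 and went from 18.1, 17.5, 12.5 and 12.4 CPM to 158, 162, 126 and 103 CPM (3.16 ± 0.12 SE, adjusted p = 1.1e-11). The plasma membrane calcium pump ATP2B2 rose by 2.78 and the calcium-dependent phospholipid-binding CPNE9 by 3.18 on the log2 scale. EMILIN3 (3.04), COL13A1 (2.76) and COL23A1 (2.62), which encode an extracellular glycoprotein and transmembrane collagens, the phosphatase PPM1J (3.44), the amino acid transporter SLC6A19 (3.38) and the neuropeptide gene CALCB (2.602) completed the 10. COL23A1 stood at 4.50, 6.79, 1.54 and 1.67 CPM in RA and 34.5, 38.0, 8.08 and 11.2 CPM in PB+RA, so its level in replicates 1 and 2 was several times that in replicates 3 and 4 in both groups, while its rise was seen in all 4 pairs.

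Among the 18 tested G1 control genes, 8 were lower (44.4%, against 15.2% of all tested genes) and 2 were higher (11.1%, against 16.3%). Their median log2 fold change was -0.37. The highest of the cyclins was CCND1, the D-type cyclin that binds CDK4 and CDK6 (chromosome 11, 69455924 to 69469242, plus strand, GRCh37), which rose from 1321, 1010.1, 1451 and 1387 CPM to 2179.6, 1876, 2751 and 2769 CPM (0.86 ± 0.04 SE, adjusted p = 7.3e-13), in 4 of 4 pairs and without overlap. Its kinase partners did not pass the fold threshold: CDK4 stood at 366 ± 8.98 CPM (SD, n = 4) in RA and 277 ± 8.67 CPM in PB+RA (-0.42 ± 0.04 SE), and CDK6 differed by -0.05 ± 0.10 SE. CDK2, the kinase that acts with E-type cyclins at S phase entry (chromosome 12, 56360565 to 56366573, plus strand, GRCh37), fell from 67.2, 64.4, 74.6 and 70.1 CPM to 7.91, 6.86, 13.3 and 15.3 CPM (-2.73 ± 0.16 SE, adjusted p = 1.0e-08). Replicates 3 and 4 of PB+RA kept higher CDK2 levels than replicates 1 and 2, and every PB+RA value was below every RA value. CDC25A, the phosphatase that activates CDK2, fell from 99.8, 97.9, 74.6 and 78.7 CPM to 28.2, 28.3, 25.2 and 27.0 CPM (-1.70 ± 0.05 SE, adjusted p = 1.8e-15). CCNE2 fell by 2.72 on the log2 scale, but its gene overlaps INTS8 on the opposite strand, which averaged 34.5 CPM, and the strand setting of the counts was not given in the sources used here. CCNE1, the other E-type cyclin, differed by -0.32 ± 0.07 SE.

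The CDK inhibitor genes did not move together. CDKN2C, which encodes the CDK4/6 inhibitor p18 and is itself an E2F target, fell from 69.2, 54.8, 80.7 and 76.1 CPM to 15.2, 13.0, 28.3 and 27.1 CPM (-1.80 ± 0.12 SE, adjusted p = 6.5e-09). CDKN1B, which encodes p27, fell from 169 ± 21.1 CPM to 102 ± 21.8 CPM (SD, n = 4, -0.76 ± 0.05 SE, adjusted p = 1.2e-10). CDKN2B, which encodes p15, was the inhibitor gene that rose, from 17.4, 15.0, 11.9 and 14.6 CPM to 22.9, 29.8, 21.3 and 22.3 CPM (0.69 ± 0.09 SE, adjusted p = 2.0e-06). CDKN1A (p21), CDKN2A (p16 and ARF) and CDKN2D (p19) were not called, with log2 fold changes of -0.29, -0.31 and -0.17. In replicates 3 and 4 alone CDKN2A was called lower (-0.52, adjusted p = 3.8e-06). CDKN1C was called lower, but it never exceeded 1.05 CPM in RA or 0.256 CPM in PB+RA, where 1 sample had 0 counts, and no fold is given. Of the pocket protein genes, RBL1 (p107, an E2F target) fell from 29.1, 26.7, 27.3 and 27.3 CPM to 6.80, 7.93, 9.82 and 9.27 CPM (-1.73 ± 0.08 SE, adjusted p = 3.0e-13), RB1 fell from 137, 129, 129.8 and 129.9 CPM to 70.7, 80.1, 97.3 and 95.9 CPM (-0.64 ± 0.07 SE, adjusted p = 4.0e-07), and RBL2 (p130) differed by -0.08 ± 0.05 SE. For RB1 the fold in replicates 3 and 4 alone was -0.44, under the fold threshold.

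Of the 17 tested E2F and DREAM factors, 8 were lower (47.1%, against 15.2% of all tested genes) and 1 higher (5.88%, against 16.3%), with a median of -0.49. The E2F family split by member. The activators E2F1 (188, 189, 181 and 170.1 CPM in RA, 49.1, 41.6, 59.4 and 58.2 CPM in PB+RA, log2 -1.83) and E2F2 fell, and E2F3 differed by -0.08 ± 0.05 SE. The atypical repressors E2F7 and E2F8, which are switched on late in S phase, fell by 3.66 and 3.10 on the log2 scale to no more than 2.25 and 1.25 CPM, and the other repressors E2F4, E2F5 and E2F6 lay at -0.12, -0.34 and -0.17 without being called. MYBL2, the activator that joins the MuvB core in S phase, fell from 528, 632, 414 and 420.2 CPM to 97.9, 123, 87.3 and 83.4 CPM (-2.36 ± 0.05 SE, adjusted p = 1.8e-17). FOXM1, its partner in G2, fell from 273, 257, 259 and 250.3 CPM to 41.5, 36.5, 58.4 and 55.3 CPM (-2.47 ± 0.11 SE, adjusted p = 1.0e-09), with ITFG2 (34.6 CPM) on the opposite strand. In the MuvB core itself, the subunits LIN9, LIN52 and LIN54 were not called (log2 -0.34, -0.49 and -0.21), RBBP4 fell by 0.51 and LIN37 rose by 0.62.

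Promoter sequences were examined because the falls lay in genes known for E2F and CHR elements. RefSeq promoter windows (250 bases before to 50 after the start, GRCh38.p14) were found for 11316 of the 15415 tested genes. Each was searched on both strands for the E2F motifs TTTCCCGC, TTTGGCGC, TTTGGCGG, TTTCGCGC and TTCCCGCC, the first and last of which can overlap, and for the CHR motifs TTTGAA and TTCGAA. An E2F motif was present in 16.1% of 1742 windows of lower genes, 4.62% of 1731 windows of higher genes and 9.10% of all windows. A CHR motif was present in 16.8%, 9.01% and 11.2%. Among the 114 windows of lower genes with a log2 fold change below -2, 27.2% held an E2F motif and 29.8% a CHR motif. Both kinds were apportioned by function: replication genes held E2F motifs in 25 of 38 windows and CHR motifs in 1, whereas mitosis genes held CHR motifs in 38 of 53 windows and E2F motifs in 8. Windows of 6 of the 10 largest falls are shown, 5′ to 3′ on the gene's strand, with matches in capitals, so that the levels above can be read beside the promoter. For FAM111B, WDR76, CDK2 and CCNE2 none is shown.
E2F2 (chr1:23531184-23531483, minus strand): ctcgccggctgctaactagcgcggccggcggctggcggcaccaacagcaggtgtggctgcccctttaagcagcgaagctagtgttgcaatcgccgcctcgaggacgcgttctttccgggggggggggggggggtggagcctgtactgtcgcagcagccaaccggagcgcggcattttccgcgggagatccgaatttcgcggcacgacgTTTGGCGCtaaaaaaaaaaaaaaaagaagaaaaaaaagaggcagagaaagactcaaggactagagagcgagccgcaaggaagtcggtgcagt
POGLUT3 (chr11:108498335-108498634, minus strand): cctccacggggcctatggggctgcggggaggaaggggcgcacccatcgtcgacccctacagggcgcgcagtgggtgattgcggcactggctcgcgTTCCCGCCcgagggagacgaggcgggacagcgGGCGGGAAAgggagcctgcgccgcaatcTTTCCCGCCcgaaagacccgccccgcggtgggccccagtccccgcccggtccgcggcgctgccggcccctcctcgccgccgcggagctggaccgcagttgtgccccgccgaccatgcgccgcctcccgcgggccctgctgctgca
AURKB (chr17:8210176-8210475, minus strand): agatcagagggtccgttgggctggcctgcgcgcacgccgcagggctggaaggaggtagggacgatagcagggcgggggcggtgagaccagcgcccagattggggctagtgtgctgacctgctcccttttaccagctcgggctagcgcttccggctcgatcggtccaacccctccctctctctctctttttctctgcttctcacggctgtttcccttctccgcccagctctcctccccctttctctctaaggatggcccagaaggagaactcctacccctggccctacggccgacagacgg
MKI67 (chr10:128126374-128126673, minus strand): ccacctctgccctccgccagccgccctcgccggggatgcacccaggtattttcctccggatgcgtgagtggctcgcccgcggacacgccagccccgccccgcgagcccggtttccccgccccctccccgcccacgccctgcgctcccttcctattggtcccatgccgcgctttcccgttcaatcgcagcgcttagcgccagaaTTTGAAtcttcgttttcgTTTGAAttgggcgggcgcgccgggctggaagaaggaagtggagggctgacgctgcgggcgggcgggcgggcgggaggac
TYMS (chr18:657403-657702, plus strand): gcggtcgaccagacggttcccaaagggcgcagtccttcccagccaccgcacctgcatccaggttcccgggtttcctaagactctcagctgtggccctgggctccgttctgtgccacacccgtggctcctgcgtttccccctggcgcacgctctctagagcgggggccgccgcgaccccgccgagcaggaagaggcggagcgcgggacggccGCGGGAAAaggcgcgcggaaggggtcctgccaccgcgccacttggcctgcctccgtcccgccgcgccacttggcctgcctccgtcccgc
CDCA3 (chr12:6851237-6851536, minus strand): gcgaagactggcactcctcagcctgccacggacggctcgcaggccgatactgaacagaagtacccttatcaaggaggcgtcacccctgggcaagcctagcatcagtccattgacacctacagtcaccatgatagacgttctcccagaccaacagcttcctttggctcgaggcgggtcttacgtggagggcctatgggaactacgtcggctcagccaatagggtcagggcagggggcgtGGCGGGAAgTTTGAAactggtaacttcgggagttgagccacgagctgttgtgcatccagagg
Counting from 1 at the start site, the E2F2 window held an E2F motif at -42 to -35, and that of TYMS held one on the opposite strand at -39 to -32. The POGLUT3 window held 5 matches on both strands between -155 and -87, 4 of which overlapped in pairs. The MKI67 window held CHR motifs at -47 to -42 and -29 to -24, CDCA3 held an E2F motif beside a CHR motif that spans the start, and the AURKB window held none of these letters. A match describes the sequence and is not a measured binding site.

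Replication genes were lower as a group. Of 44 tested genes of origin licensing and the replication fork, 36 were lower and the other 8 were not called (median -1.25), against 15.2% lower among all tested genes. Licensing genes (11 of 16 lower, median -1.19) included CDT1 (-2.29), GMNN (-2.13), CDC6 (-1.94) and ORC1 (-1.93), and each of the MCM2 to MCM7 helicase subunits, which lay between -1.57 and -1.05. The origin recognition subunits ORC2, ORC3, ORC4, ORC5 and ORC6 were not called and lay between -0.49 and 0.16. At the fork, 25 of 28 were lower (median -1.41). PCNA, the sliding clamp of replication, went from 345, 343, 319 and 313 CPM to 50.6, 52.2, 80.4 and 80.7 CPM (-2.37 ± 0.14 SE, adjusted p = 2.4e-08), and CLSPN, an adaptor of the replication checkpoint, from 32.4, 33.0, 30.1 and 32.3 CPM to 4.21, 4.07, 6.34 and 6.61 CPM (-2.62 ± 0.12 SE, adjusted p = 9.4e-13). For both genes PB+RA replicates 3 and 4 were above replicates 1 and 2 and all were far below RA. GINS2 fell by 2.54, with the opposite-strand gene GSE1 at 299.7 CPM.

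Nucleotide supply followed, with 11 of 18 genes lower and 7 not called (median -0.74). TYMS, which makes dTMP, went from 128, 117, 121 and 117 CPM to 16.3, 12.4, 24.8 and 25.0 CPM (-2.67 ± 0.16 SE, adjusted p = 3.8e-08), with ENOSF1 (11.2 CPM) on the opposite strand, and RRM2, the S phase subunit of ribonucleotide reductase, from 333, 309.8, 313 and 305 CPM to 38.6, 40.2, 76.1 and 74.5 CPM (-2.52 ± 0.19 SE, adjusted p = 5.1e-07). RRM2B, which encodes another small subunit of the enzyme, differed by 0.10 ± 0.08 SE. The thymidine kinase TK1 fell by 2.38 on the log2 scale. Of the 6 enzymes of purine synthesis 2 were lower (GMPS and PAICS), against 7 of 9 of pyrimidine synthesis.

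Every one of the 62 tested mitosis and kinetochore genes was lower (median -1.78, from -2.89 in AURKB to -0.56 in CDC25B). Their roles did not separate: the medians were -1.88 for 11 kinases, -1.57 for 6 cyclins and phosphatases, -1.83 for 14 kinetochore genes, -1.77 for 19 spindle genes and -1.92 for 12 genes of anaphase and chromosome structure. AURKB, the kinase of the chromosomal passenger complex (chromosome 17, 8108051 to 8113918, minus strand, GRCh37), measured 74.1, 77.1, 67.4 and 68.7 CPM in RA and 7.91, 7.44, 12.5 and 11.9 CPM in PB+RA (-2.89 ± 0.14 SE, adjusted p = 3.4e-10). TOP2A, the decatenating topoisomerase, measured 425, 394, 467 and 443 CPM and 66.4, 64.3, 122 and 131 CPM (-2.25 ± 0.14 SE, adjusted p = 8.4e-08). The mitotic cyclin CCNB1 was among the genes that fell less, from 217, 217, 190.5 and 198 CPM to 62.7, 65.7, 64.5 and 71.0 CPM (-1.66 ± 0.06 SE, adjusted p = 5.3e-15). None of these genes was at 0 in PB+RA: AURKB kept 7.44 to 12.5 CPM and TOP2A 64.3 to 131 CPM. KIF20A, a kinesin of cytokinesis, changed by -2.605, and it overlaps BRD8 (83.6 CPM) on the opposite strand.

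Genes of homologous recombination and the Fanconi pathway, which work on replicating DNA, were lower in 21 of 26 cases (median -1.50). BRIP1, a helicase of the Fanconi pathway, went from 36.1, 27.3, 37.2 and 36.98 CPM to 7.67, 5.67, 13.9 and 13.0 CPM (-1.82 ± 0.14 SE, adjusted p = 4.6e-08). BRCA1 (-1.57), BRCA2 (-1.58) and FANCA (-1.83) were lower as well, with FANCA overlapping ZNF276 (55.6 CPM) on the opposite strand. FANCB, FANCF, FANCM, PALB2 and RAD54B were not called and lay between -0.34 and -0.01. Chromatin maintenance genes were lower in 23 of 28 cases (median -1.11). LMNB1, a nuclear lamina protein, went from 207, 192, 202 and 194 CPM to 26.4, 24.1, 41.4 and 42.1 CPM (-2.62 ± 0.13 SE, adjusted p = 3.0e-09), and HMGB2, an abundant chromatin protein of cycling cells, from 299, 268, 306 and 289.7 CPM to 42.9, 39.5, 73.3 and 69.4 CPM (-2.43 ± 0.13 SE, adjusted p = 1.0e-08). The histone chaperone subunit CHAF1B fell by 2.45. Within enzyme families the members diverged: the Polycomb methyltransferase EZH2 fell by 1.83 while its paralog EZH1 differed by 0.47 ± 0.07 SE, and the maintenance DNA methyltransferase DNMT1 fell by 1.15 while TET2, TET3 and DNMT3A were not called.

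**Figure D1:**
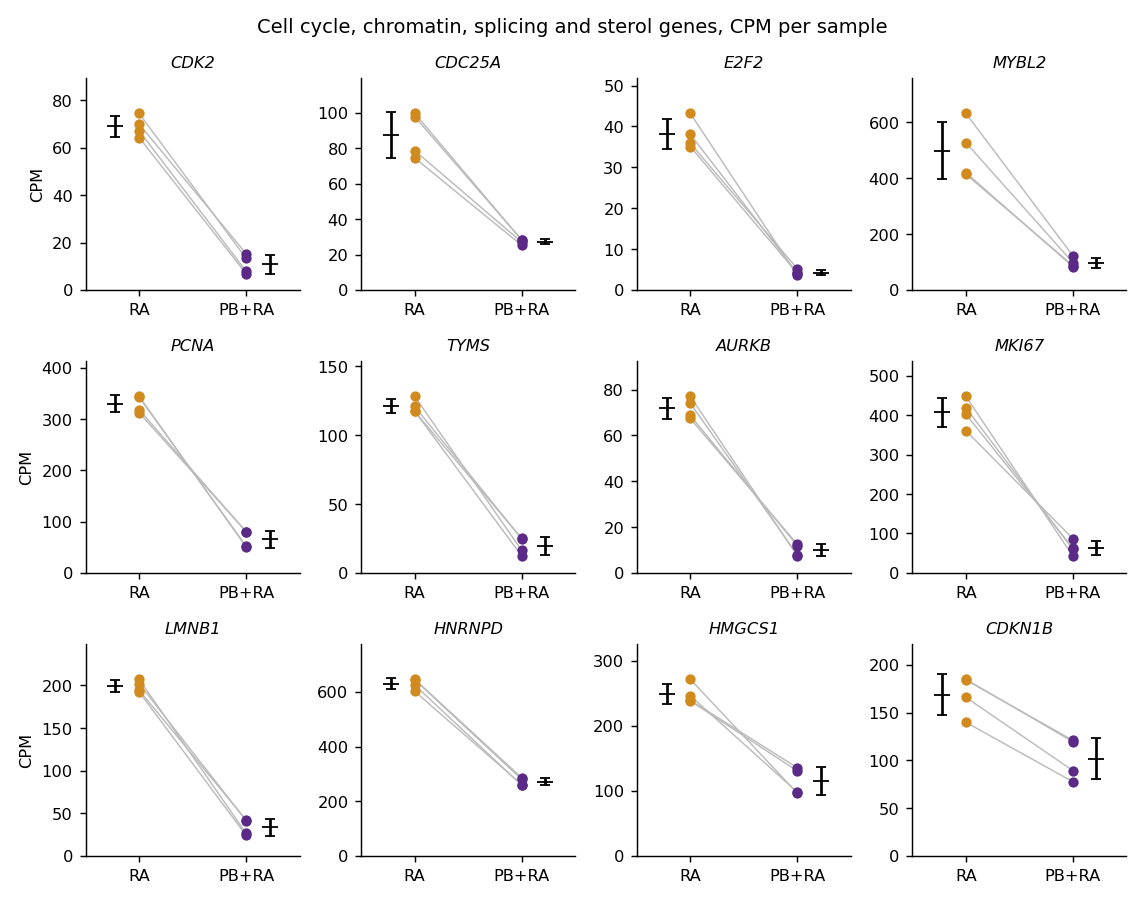
CPM in each RA (orange) and PB+RA (purple) sample for 12 genes of the cell cycle, chromatin, splicing and sterol supply, with grey lines joining samples of the same replicate number and black bars giving the mean and SD of 4 samples. Each PB+RA point lies below each RA point in every panel, with CDK2 between 6.86 and 15.3 CPM in PB+RA against 64.4 to 74.6 CPM in RA.

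RNA processing genes moved less than replication genes and in the same direction. Of 44 tested spliceosome genes, 27 were lower and 17 not called (median -0.56), with 6 of 10 SR proteins, 14 of 24 snRNP genes and 7 of 10 hnRNP genes lower. HNRNPD, an AU-rich element binding protein that also regulates splicing, went from 626, 647, 645 and 602 CPM to 258, 286, 279.9 and 261 CPM (-1.24 ± 0.05 SE, adjusted p = 1.2e-14). The core snRNP gene SNRPA1 went from 112, 134, 102 and 103 CPM to 54.5, 73.1, 49.4 and 50.4 CPM (-1.01 ± 0.05 SE, adjusted p = 7.8e-13), and SRSF3, a splicing factor of the SR family, from 499.6, 482, 467 and 481 CPM to 233, 257, 268 and 272 CPM (-0.93 ± 0.05 SE, adjusted p = 2.0e-12). With a log2 fold minimum of 1, 2 of the 27 lower genes were left. Ribosome biogenesis genes, many of them MYC targets, stayed near 0 (1 higher, 1 lower of 31, median -0.04). FBL, the rRNA methyltransferase of the nucleolus, was the gene that fell, from 349.6, 351, 274 and 276 CPM to 159, 183, 136 and 147 CPM (-1.02 ± 0.05 SE, adjusted p = 8.0e-13). RRP12 was called higher at 0.51 ± 0.07 SE, and its fold was under 0.5 in replicates 3 and 4 alone (0.31). MYCN, the amplified driver of this line, rose from 2476, 3219, 2466 and 2378 CPM to 4862, 5451, 3866 and 3670.2 CPM (0.74 ± 0.07 SE, adjusted p = 1.3e-07).

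Cholesterol supply was lower. Of 24 tested genes, 18 were lower and 6 not called (median -0.81), including 16 of 20 enzymes. HMGCS1, an early enzyme of the mevalonate pathway, went from 246, 271, 238 and 239 CPM to 97.9, 96.4, 131 and 135 CPM (-1.14 ± 0.09 SE, adjusted p = 4.9e-08). ACAT2, which makes acetoacetyl-CoA, fell by 2.12 but overlaps TCP1 (464 CPM) on the opposite strand. The regulator SREBF1 fell by 0.72, while SREBF2 differed by -0.35 ± 0.05 SE. Oxidative phosphorylation stood apart from these groups: of 38 tested nuclear genes, edgeR called 0 higher and 0 lower, DESeq2 and limma-voom also called 0, and the log2 fold changes lay between -0.44 and 0.36 (median 0.02). At an unadjusted p below 0.05 and no fold minimum, 16 of them were above 0 and 8 below.

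**Figure D2:**
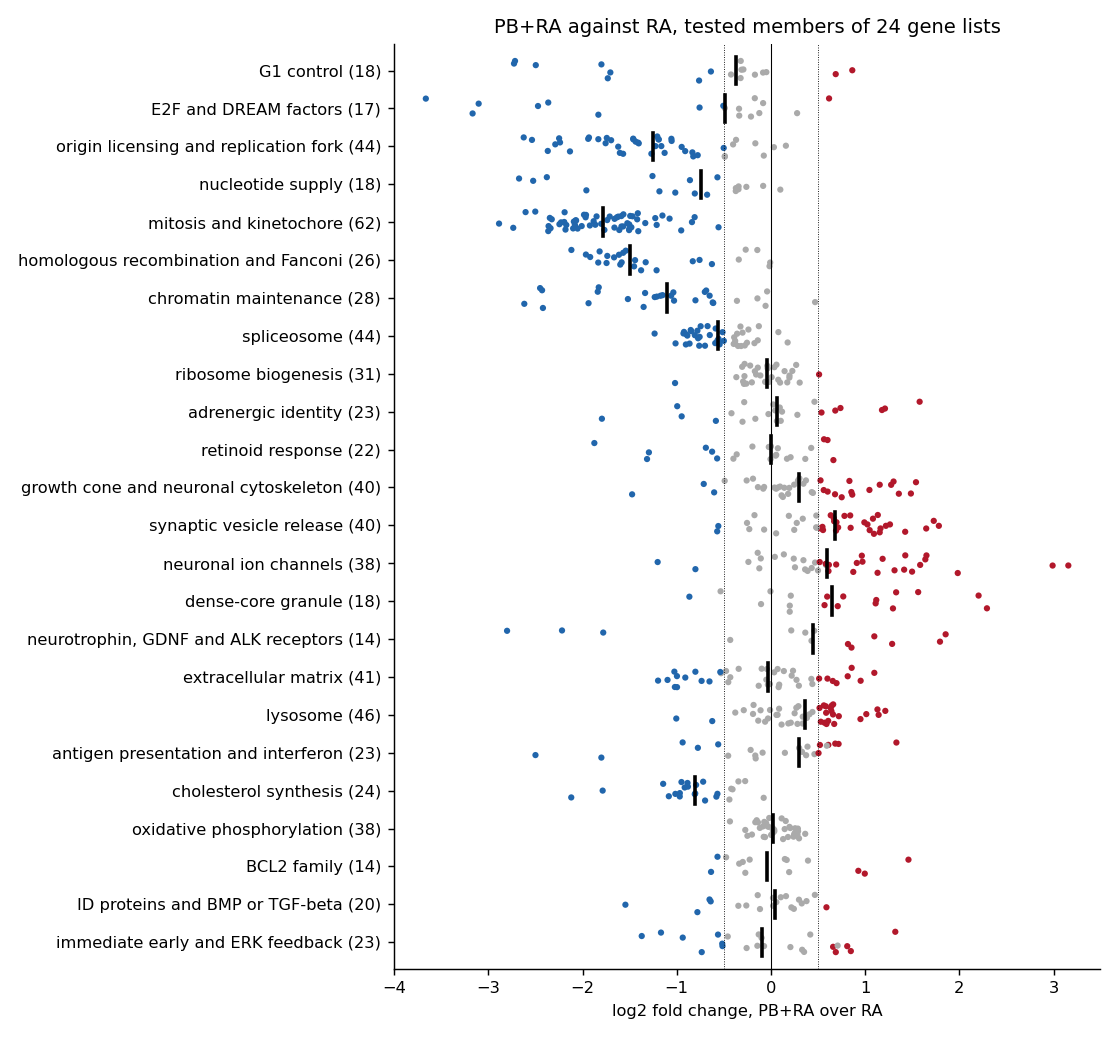
Log2 fold change of PB+RA over RA (horizontal axis) for the tested members of 24 gene lists, with the number tested in brackets; red points were called higher, blue lower and grey not called, black bars are medians and dotted lines mark the fold threshold of 0.5. The lists of replication, mitosis and repair lie to the left with medians of -1.25, -1.78 and -1.50, and those of synaptic vesicles, ion channels and dense-core granules lie to the right with medians of 0.68, 0.60 and 0.65.

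Genes of the neuronal secretory machinery were higher. Synaptic vesicle release had 26 of 40 tested genes higher and 2 lower (median 0.68), against 16.3% higher among all tested genes. The SNARE genes and their regulators (7 of 8 higher) included SNAP25, which went from 45.0, 54.3, 51.4 and 46.9 CPM to 113, 117, 114 and 104 CPM (1.16 ± 0.05 SE, adjusted p = 8.4e-14), and STX1A (1.26). Of the calcium sensors 4 of 8 were higher, among them SYT5, a synaptotagmin, which went from 24.6, 24.2, 28.7 and 23.1 CPM to 70.4, 61.2, 77.3 and 64.5 CPM (1.43 ± 0.11 SE, adjusted p = 1.6e-08). SYN2, which tethers the reserve pool of vesicles, went from 34.1, 23.0, 33.1 and 31.5 CPM to 119.7, 96.5, 110.1 and 96.5 CPM (1.78 ± 0.08 SE, adjusted p = 2.0e-12), and SYP, the vesicle membrane protein used as a neuronal marker, from 216, 225, 195 and 178 CPM to 445, 414, 424 and 357 CPM (0.99 ± 0.05 SE, adjusted p = 1.0e-12). The PB+RA samples lay above the RA samples in each of these genes. At the active zone 8 of 11 were higher, including BSN (1.02), while RIMS2 was lower (-0.57), as was the vesicle GTPase RAB3B (-0.56).

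Dense-core granule genes serve the storage and release of peptides and amines. They were higher in 11 of 18 cases (61.1%, against 16.3% of all tested genes) and lower in 1 (median 0.65). CADPS, which primes these granules, went from 9.38, 7.20, 15.2 and 12.1 CPM to 54.3, 35.3, 66.4 and 59.5 CPM (2.29 ± 0.09 SE, adjusted p = 4.5e-14). The granin CHGA went from 1833, 2114, 946 and 1007 CPM to 4983, 5600.3, 2235 and 2419 CPM (1.33 ± 0.17 SE, adjusted p = 5.1e-05). CHGA was higher in replicates 1 and 2 than in 3 and 4 within each group, and it rose in 4 of 4 pairs without overlap. CHGB rose by 1.30, while SCG2 (0.21), VGF (-0.11) and NPY (-0.01) were not called and the peptide gene VIP fell by 0.87. Somatostatin (SST) went from 2.62, 3.19, 8.63 and 6.26 CPM to 13.3, 11.1, 43.4 and 28.4 CPM (2.20 ± 0.24 SE, adjusted p = 3.5e-06).

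Ion channel genes were higher in 21 of 38 cases (55.3%, against 16.3% of all tested genes) and lower in 2 (median 0.60). By type, 4 of 7 sodium, 4 of 7 calcium, 4 of 10 potassium and 9 of 14 ligand-gated channel genes were higher. CACNA1B, the N-type calcium channel of presynaptic terminals, went from 23.9, 26.5, 22.3 and 19.9 CPM to 89.6, 69.2, 65.8 and 69.0 CPM (1.64 ± 0.07 SE, adjusted p = 1.2e-13). KCNA2 and SCN2A rose by 2.99 and 1.98 from at most 2.02 and 2.26 CPM in RA. The nicotinic subunit CHRNA5 (-1.20) and the serotonin receptor HTR3A (-0.80) were the lower ones.

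The neuronal cytoskeleton changed in part. Of 40 tested genes of the growth cone and cytoskeleton, 15 were higher (37.5%, against 16.3% of all tested genes) and 3 lower (median 0.29). The higher ones included STMN4 and STMN2, neuronal stathmins, STMN4 from 34.8, 32.6, 35.8 and 33.4 CPM to 101, 82.6, 116 and 106 CPM (1.54 ± 0.07 SE, adjusted p = 1.2e-12) and STMN2 from 514, 533, 670.2 and 652 CPM to 899.9, 941, 1296 and 1233 CPM (0.85 ± 0.05 SE, adjusted p = 2.5e-11). STMN1, the stathmin of dividing cells, fell by 0.60. MAPT, the axonal microtubule protein tau, went from 24.6, 24.7, 22.9 and 22.5 CPM to 77.2, 62.6, 67.1 and 62.6 CPM (1.49 ± 0.06 SE, adjusted p = 5.4e-14), and the peripheral neuron filament PRPH from 490.0, 456, 449.8 and 425 CPM to 1154, 989, 1053 and 919.5 CPM (1.15 ± 0.05 SE, adjusted p = 1.2e-13). NEFM (0.83) and INA (0.68) were higher and NEFL (0.11) and NEFH (0.37) were not called, nor were TUBB3 (0.18) and MAP2 (0.10). DPYSL5, a collapsin response mediator, went the other way, from 258, 264, 234 and 231 CPM to 80.9, 60.1, 119.8 and 109 CPM (-1.47 ± 0.21 SE, adjusted p = 0.00012).

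**Figure D3:**
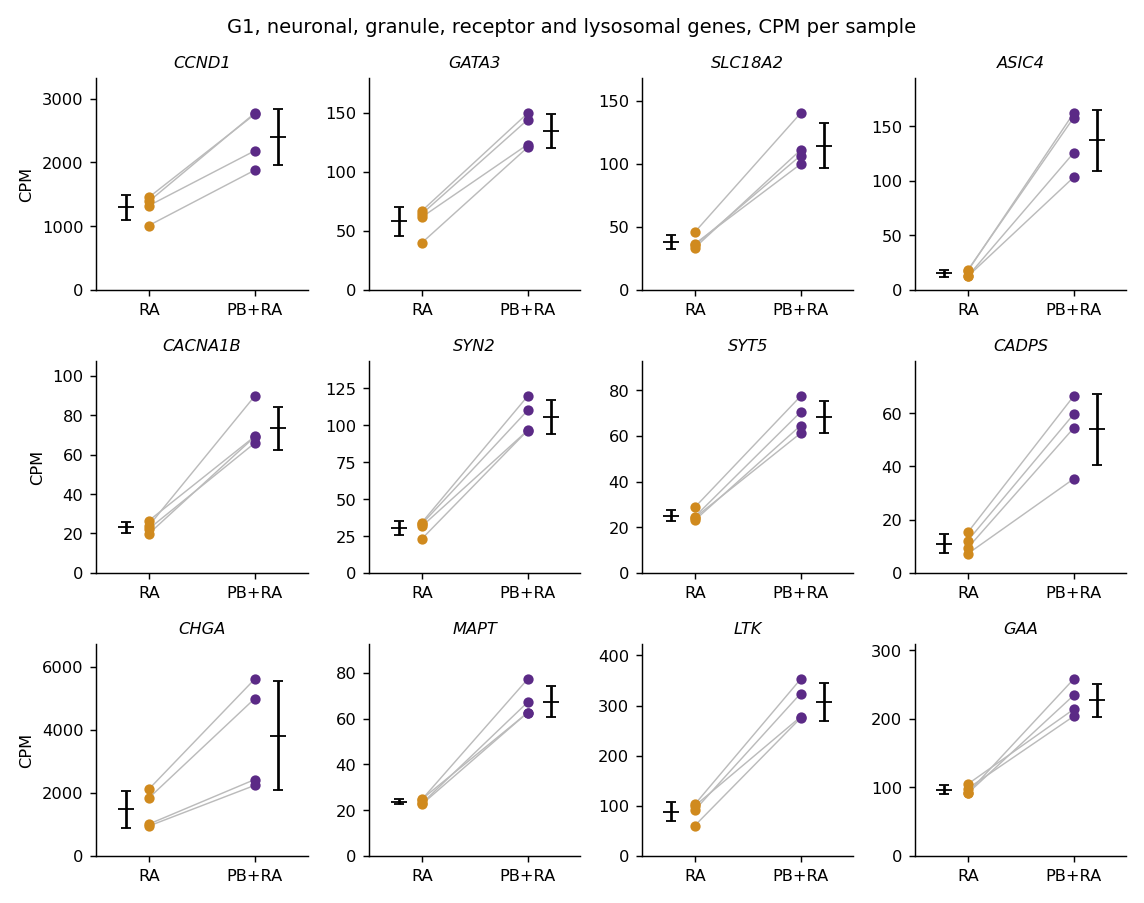
CPM in each RA (orange) and PB+RA (purple) sample for CCND1 and 11 neuronal, granule, receptor and lysosomal genes, with grey lines joining samples of the same replicate number and black bars giving the mean and SD of 4 samples. Each PB+RA point lies above each RA point in every panel, and CHGA shows replicates 1 and 2 apart from replicates 3 and 4 in both groups.

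Of 23 tested adrenergic identity genes, 6 were higher and 4 lower (26.1% and 17.4%, against 16.3% and 15.2% of all tested genes, median 0.06). Of the 13 transcription factors 2 were higher and 4 lower, and of the 10 catecholamine genes 4 were higher. The factors of the core circuitry PHOX2A (0.09), HAND2 (0.10), ISL1 (-0.28) and TBX2 (0.28) were not called. GATA3, also of the circuitry, went from 66.8, 39.8, 64.2 and 61.6 CPM to 149, 121, 144 and 123 CPM (1.21 ± 0.11 SE, adjusted p = 5.1e-07). SOX11, a factor of immature neuroblasts, fell by 0.95, TFAP2B by 0.58 and INSM1 by 1.79, the last from at most 2.67 CPM. In the catecholamine pathway, the vesicular monoamine transporter SLC18A2 went from 45.9, 33.5, 36.5 and 35.4 CPM to 140.1, 111, 99.8 and 107 CPM (1.58 ± 0.06 SE, adjusted p = 2.0e-14), with PDZD8 (74.3 CPM) on the opposite strand, and the rate-limiting enzyme TH from 223, 210.1, 201 and 156 CPM to 416, 327, 304 and 244 CPM (0.68 ± 0.14 SE, adjusted p = 0.0016). DBH (0.12) and DDC (0.05) were not called. The 8 adrenergic markers summed to 3570 to 4799 CPM in RA and 5181 to 8693 CPM in PB+RA, with 3 higher (CHGA, GATA3 and TH) and 5 not called. The 11 of 12 mesenchymal markers found in the data summed to 2096 to 2515 CPM in RA and 1415 to 1855 CPM in PB+RA. Of 10 tested, 4 were lower (WWTR1, YAP1, VIM and TWIST1) and 6 were not called, with 7 of the 10 below 0 and 3 above. Those above were CD44 (83.5 CPM on average in RA, 119 in PB+RA), IL6ST (230 and 267 CPM) and NOTCH2 (4.02 and 5.67 CPM). YAP1 averaged only 2.97 CPM in RA. VIM went from 912, 1096, 1085 and 1138 CPM to 483, 659, 628 and 656 CPM (-0.83 ± 0.04 SE, adjusted p = 1.6e-12) and TWIST1 from 79.98, 79.2, 123 and 113 CPM to 54.5, 46.3, 60.9 and 66.9 CPM (-0.79 ± 0.06 SE, adjusted p = 3.0e-10). The 7 of 10 Schwann cell and melanocyte markers found in the data, 5 of them tested, summed to 31.95 to 59.2 CPM in RA and 36.1 to 44.3 CPM in PB+RA, with S100B higher and ERBB3, PMEL and MITF lower. The part of these marker differences in the neuronal and matrix results was not tested.

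Receptors of neurotrophins, GDNF family ligands and the ALK family went both ways, with 6 of 14 tested genes higher and 3 lower (median 0.45). These are 42.9% and 21.4%, against 16.3% and 15.2% of all tested genes, so the lower share was near that of all genes. NGFR, the low-affinity neurotrophin receptor, went from 393, 370.2, 165 and 207 CPM to 809, 777, 412 and 430.2 CPM (1.10 ± 0.07 SE, adjusted p = 7.8e-10), and LTK, a receptor related to ALK (chromosome 15, 41795835 to 41806085, minus strand, GRCh37), from 103, 60.3, 91.4 and 99.6 CPM to 352, 275, 324 and 277 CPM (1.79 ± 0.09 SE, adjusted p = 7.8e-11). RET, a retinoid-induced receptor for GDNF family ligands, was the most abundant at 1996 ± 93.8 CPM in RA and 2606 ± 131 CPM in PB+RA (SD, n = 4), and its change of 0.36 ± 0.04 SE did not reach the threshold of 0.5. Its co-receptors GFRA1 (4.91, 7.08, 9.31 and 11.0 CPM in RA, 0.914, 0.886, 1.05 and 1.84 CPM in PB+RA) and GFRA3 were lower (-2.80 and -2.22), as was the BDNF receptor NTRK2 (-1.78), all from levels of at most 11.0 CPM.

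Of 22 tested retinoid response genes, 3 were higher (13.6%, against 16.3% of all tested genes) and 6 lower (27.3%, against 15.2%), with a median of 0.00. The receptor RARA measured 190.0, 164, 205 and 203 CPM in RA and 209, 186, 214 and 203 CPM in PB+RA (0.07 ± 0.05 SE), and RARB, a direct target of its own receptor family, 22.5, 20.1, 33.8 and 36.3 CPM and 24.6, 20.7, 28.4 and 38.5 CPM (-0.02 ± 0.09 SE). The groups overlapped for both genes. SOX4 (-0.20 ± 0.05 SE) and MEIS1 (-0.00 ± 0.05 SE) are retinoid-responsive factors of this cell type and were not called either. STRA6, the retinol transporter and a retinoid target, went from 535, 532, 542 and 544 CPM to 911, 820.4, 835 and 751 CPM (0.60 ± 0.05 SE, adjusted p = 4.5e-10). CYP26B1, which degrades RA, was higher (0.66 ± 0.10 SE). Its relative CYP26A1 went from 47.3, 75.1, 107 and 68.9 CPM to 51.4, 71.5, 214 and 157 CPM: it was called higher (0.56 ± 0.19 SE, adjusted p = 0.025), yet the rise lay in replicates 3 and 4, and replicates 1 and 2 alone gave a log2 fold change of -0.000949 (adjusted p = 0.99). Without the replicate block its adjusted p was 0.11, and leaving out RA or PB+RA replicate 3 or 4 gave 0.10 to 0.15. The transglutaminase TGM2, a classical retinoid target, fell from 132, 151, 208 and 256 CPM to 75.7, 79.6, 56.8 and 96.9 CPM (-1.30 ± 0.19 SE, adjusted p = 0.00013), with RPRD1B (42.7 CPM) on the opposite strand. Of the binding proteins, CRABP2 lay at 0.17 ± 0.09 SE and CRABP1 was lower at -0.69 ± 0.09 SE, adjusted p = 1.1e-05 (adjusted p = 0.085 without the block). HOXD4 (-0.57), RXRA (-0.62), ALDH1A3 (-1.315) and RARRES2 (-1.87) were lower, the last from at most 1.13 CPM.

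Lysosomal genes were higher in 20 of 46 cases (43.5%, against 16.3% of all tested genes) and lower in 2 (median 0.36). The acid hydrolase GAA went from 91.9, 91.4, 105 and 98.4 CPM to 258, 234, 214 and 204 CPM (1.21 ± 0.07 SE, adjusted p = 1.3e-11), and the calcium channel MCOLN1 from 43.1, 40.9, 41.1 and 41.5 CPM to 108, 95.3, 92.4 and 75.7 CPM (1.13 ± 0.06 SE, adjusted p = 2.0e-12). Proton pump (V-ATPase) subunits were higher in 7 of 13 cases and hydrolases in 11 of 21. The regulators TFEB (-0.19) and TFE3 (0.06) were not called and MITF fell by 0.62. Of 41 extracellular matrix genes 8 were higher and 11 lower (19.5% and 26.8%, against 16.3% and 15.2% of all tested genes, median -0.03). The collagenase MMP2 went from 858, 815, 1072 and 1040.1 CPM to 2025, 1955, 2113 and 2050.1 CPM (1.10 ± 0.05 SE, adjusted p = 7.3e-13), and THBS2 from 119.7, 105, 68.5 and 74.3 CPM to 64.0, 73.6, 28.2 and 27.6 CPM (-1.02 ± 0.15 SE, adjusted p = 8.4e-05). The proteoglycan DCN stood at 2.10 to 2.25 CPM in RA replicates 1 and 2 and 39.6 to 41.5 CPM in replicates 3 and 4, so that the groups overlapped, and its fall (-1.20 ± 0.19 SE, adjusted p = 5.3e-05) was not called without the block (adjusted p = 0.39). Without the block 6 matrix genes were lower, not 11, and replicates 3 and 4 alone gave 4 higher, not 8.

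Of 23 interferon and antigen presentation genes 6 were higher and 5 lower (26.1% and 21.7%, against 16.3% and 15.2% of all tested genes, median 0.30). The antiviral enzyme OAS3 fell from 49.3, 51.9, 57.1 and 53.2 CPM to 11.7, 11.2, 20.2 and 19.5 CPM (-1.80 ± 0.15 SE, adjusted p = 3.4e-07), while the immunoproteasome subunit PSMB10 (0.68) was higher, as was HLA-B (0.61) at no more than 1.95 CPM, and STAT2 passed narrowly (0.51 ± 0.08 SE, 0.44 in replicates 1 and 2 alone). In the BCL2 family, 3 of 14 were higher and 2 lower (21.4% and 14.3%), shares near those of all tested genes (16.3% and 15.2%): BOK (16.7, 9.54, 12.4 and 14.9 CPM to 43.97, 33.2, 36.6 and 33.9 CPM, 1.46 ± 0.10 SE, adjusted p = 2.9e-10) and BBC3 (1.00), which promote apoptosis, were higher, and PMAIP1, another proapoptotic member, lower (-0.57 ± 0.08 SE, -0.50 in replicates 1 and 2 alone). The prosurvival genes BCL2, BCL2L1, BCL2L2 and MCL1 were not called and lay between -0.30 and 0.19. Of 20 genes of ID proteins and BMP or TGF-beta signalling, ID1 was higher (0.59 ± 0.09 SE, adjusted p = 3.0e-05, or 0.49 without RA replicate 2) and 4 were lower. Among all tested genes the shares were 16.3% higher and 15.2% lower. The lower count of this list varied with the tool, with 2 genes by DESeq2 and 3 by limma-voom, while each called 1 higher. Immediate early and ERK feedback genes were higher in 5 and lower in 7 of 23 cases (21.7% and 30.4%, against 16.3% and 15.2% of all tested genes): ETV4 fell from 178, 179, 192 and 186 CPM to 58.3, 61.6, 89.3 and 83.2 CPM (-1.37 ± 0.09 SE, adjusted p = 1.5e-09) with DHX8 (76.6 CPM) on the opposite strand, the nuclear receptor NR4A1 fell by 1.17, and EGR3 rose from 7.60 to 12.2 CPM to 21.7 to 28.9 CPM.

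The same inhibitor had also been given without the retinoid, so the difference between PB and DMSO was set beside that between PB+RA and RA. These comparisons share no samples, although all 4 groups share replicate numbers. PB alone gave 2878 higher (18.7%) and 1865 lower (12.1%) genes in the same fit. Of the genes higher in PB+RA than in RA, 1902 were also higher in PB than in DMSO (75.6% of the former list and 66.1% of the latter), and of the lower genes 1496 were shared (63.7% and 80.2%). Across 15415 genes the log2 fold changes correlated at r = 0.814, as a description over genes, which are not independent replicates. The difference of both log2 fold changes was then tested for each gene: it was above 0 in 190 genes (1.23%) and below 0 in 981 (6.36%), 7.6% of genes in all. Of those 981, 493 were lower in PB+RA than in RA, 141 were higher and 347 were not called. The split was 295 and 776 with an offset for GC content and length, 308 and 735 in replicates 3 and 4 alone, and 64 and 466 without the replicate block.

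Mitosis genes, and a part of the other cell cycle lists, fell further with PB on RA than on DMSO. Of the 62 mitosis genes, 51 had a difference below 0 by the test, against 6.36% of all tested genes. Their medians were -1.78 on RA and -1.06 on DMSO. MKI67 averaged 456 ± 39.2 CPM in DMSO, 149.6 ± 13.1 CPM in PB, 407 ± 36.3 CPM in RA and 63.1 ± 18.2 CPM in PB+RA (SD, n = 4 each), so that PB lowered it by 1.61 on the log2 scale without RA and by 2.74 with it (difference -1.13 ± 0.22 SE, adjusted p = 0.0059). E2F2 (-1.49 ± 0.13 SE, adjusted p = 1.8e-07) and MYBL2 (-1.18 ± 0.07 SE, adjusted p = 2.3e-09) gave the same direction. The test was also passed below 0 by 17 of 44 replication genes, 14 of 26 repair genes, 8 of 28 chromatin genes and 5 of 17 E2F and DREAM factors. Of 18 G1 genes 4 passed, among them CDC25A (-0.68 ± 0.07 SE, adjusted p = 2.6e-06). CDK6, another of the 4, rose with PB on DMSO (0.51) and differed by -0.05 on RA, a rise not seen on RA and not a further fall. CCNE1 (difference -0.56) was not called on RA either. In the other direction these 6 lists had 0 genes by edgeR, DESeq2 and limma-voom, and 3 at an unadjusted p below 0.05. Only 1.23% of all tested genes had a called difference above 0, so a count of 0 in these lists is near that share. CDK2 did not pass (difference -0.66 ± 0.22 SE, adjusted p = 0.058), nor did CCND1 (0.05 ± 0.06 SE, adjusted p = 0.63).

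No spliceosome gene had a called difference. Their medians were -0.56 on RA and -0.48 on DMSO. By edgeR, DESeq2 or limma-voom 0 of 44 had a called difference (13 below 0 and 0 above at an unadjusted p below 0.05). Among all tested genes 7.6% had one by edgeR. Without the fold minimum 7 of the 44 had a difference below 0 at an adjusted p below 0.05, and 0 above, among them HNRNPD (-0.29 ± 0.06 SE, adjusted p = 0.0033) and SNRPA1 (-0.34 ± 0.07 SE, adjusted p = 0.0018), and SRSF3 did not (-0.14 ± 0.07 SE, adjusted p = 0.19). Synaptic vesicle genes had medians of 0.68 on RA and 0.82 on DMSO. Of 40 genes 2 had a called difference above 0 and 8 below, against 1.23% and 6.36% of all tested genes. STMN4 (-1.23 ± 0.11 SE, adjusted p = 8.5e-07) and CADPS (-0.64 ± 0.13 SE, adjusted p = 0.0013) rose with PB in both settings and less on RA, and SYN2 (0.04 ± 0.11 SE, adjusted p = 0.86) did not pass the test. Among 23 adrenergic identity genes 5 differences were below 0 by edgeR and DESeq2 and 6 by limma-voom, against 6.36% of all tested genes by edgeR. Each tool called 0 above (4 at an unadjusted p below 0.05), near the 1.23% of all tested genes. Those below 0 included TH (-0.76 ± 0.21 SE, adjusted p = 0.029) and DBH. DBH rose with PB on DMSO (0.75) and was not called on RA (difference -0.63 ± 0.12 SE, adjusted p = 0.0021).

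**Figure D4:**
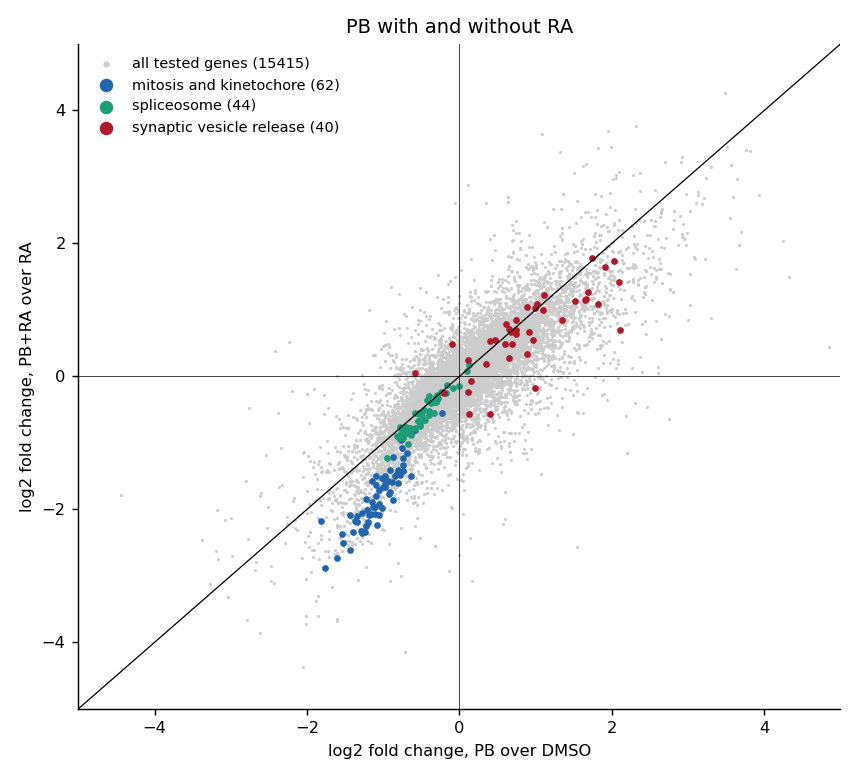
Log2 fold change of PB+RA over RA (vertical axis) against that of PB over DMSO (horizontal axis) for 15415 tested genes, 2 of which lie beyond the axes; the diagonal marks equal response. Mitosis genes (blue) lie below the diagonal, spliceosome genes (green) nearer to it, and synaptic vesicle genes (red) mostly in the upper right quadrant.

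Some receptors and secreted proteins rose more with PB on RA than on DMSO. LTK averaged 99.6 ± 17.5 CPM in DMSO, 195 ± 17.9 CPM in PB, 88.5 ± 19.4 CPM in RA and 307 ± 37.7 CPM in PB+RA (SD, n = 4 each), a difference of 0.81 ± 0.12 SE, adjusted p = 0.00027. ALK (difference 0.54 ± 0.14 SE, adjusted p = 0.013) gained as well, and GFRA1 (-1.99 ± 0.40 SE, adjusted p = 0.0016) and GFRA3 (-2.79 ± 0.42 SE, adjusted p = 9.0e-05) lay below 0. CALCB was not called with PB on DMSO (0.35) and rose on RA (difference 2.25 ± 0.34 SE, adjusted p = 0.00010), and COL23A1 rose by 0.64 on DMSO and 2.62 on RA (difference 1.98 ± 0.20 SE, adjusted p = 1.2e-06). The 5 largest called differences above 0 among genes that averaged 10 CPM or more over 16 samples were SLC6A19 (2.06 ± 0.29 SE, adjusted p = 0.00024), the scramblase PLSCR1 (1.64 ± 0.20 SE, adjusted p = 2.6e-05), SST (1.50 ± 0.36 SE, adjusted p = 0.013), the procollagen protease ADAMTS2 (1.39 ± 0.09 SE, adjusted p = 2.8e-09) and the water channel AQP1 (1.35 ± 0.40 SE, adjusted p = 0.045). ADAMTS2 was lower with PB on DMSO, from 77.5, 69.9, 54.2 and 73.4 CPM to 57.0, 50.5, 36.7 and 45.9 CPM, and higher with PB on RA, from 118, 89.6, 60.2 and 82.0 CPM to 184, 159, 123 and 163 CPM. Without the replicate block SLC6A19, SST and AQP1 were not called (adjusted p = 0.073, 0.52 and 0.19), SST had a difference of 0.60 in replicates 1 and 2 alone, and AQP1 lost its call in 11 of 16 fits that left out 1 sample (difference 1.12 to 1.45).

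Among called genes averaging 10 CPM or more over 16 samples, the 5 furthest below 0 were LAMA4, SEMA3A, LINC02458, TAGLN3 and SERPINF1. LAMA4, a laminin chain, rose with PB from 3.55, 3.63, 4.84 and 4.72 CPM to 23.9, 23.7, 24.1 and 25.7 CPM on DMSO and stood at 23.0, 21.3, 57.6 and 44.2 CPM and 27.1, 24.2, 58.9 and 51.7 CPM on RA, where it was not called (0.14 ± 0.20 SE, difference -2.46 ± 0.32 SE, adjusted p = 0.00043). SEMA3A, a repulsive axon guidance cue, was higher with PB on DMSO (0.88) and lower on RA, from 12.7, 19.6, 48.5 and 38.6 CPM to 8.15, 9.65, 13.2 and 17.8 CPM (difference -2.13 ± 0.25 SE, adjusted p = 0.00012). In RA both genes were higher in replicates 3 and 4 than in 1 and 2. SERPINF1, which encodes the secreted factor PEDF, also turned direction, from 0.68 on DMSO to -1.26 on RA (difference -1.94 ± 0.16 SE, adjusted p = 2.0e-07). TAGLN3, a neuronal transgelin, rose in both settings, by 3.02 on DMSO and 1.07 on RA (difference -1.95 ± 0.09 SE, adjusted p = 2.5e-11). The long noncoding LINC02458 had a difference of -2.12 ± 0.19 SE, adjusted p = 1.2e-06, and without the replicate block its adjusted p was 0.057. In all, 36 genes were called in opposite directions in both comparisons with a called difference, 30 lower on RA and higher on DMSO and 6 the reverse. No minimum level was set for this count. Some of these genes were near the floor, such as GPR4, STARD4-AS1 and LOC100128653 (0.29, 0.28 and 0.26 CPM on average over 16 samples).

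**Figure D5:**
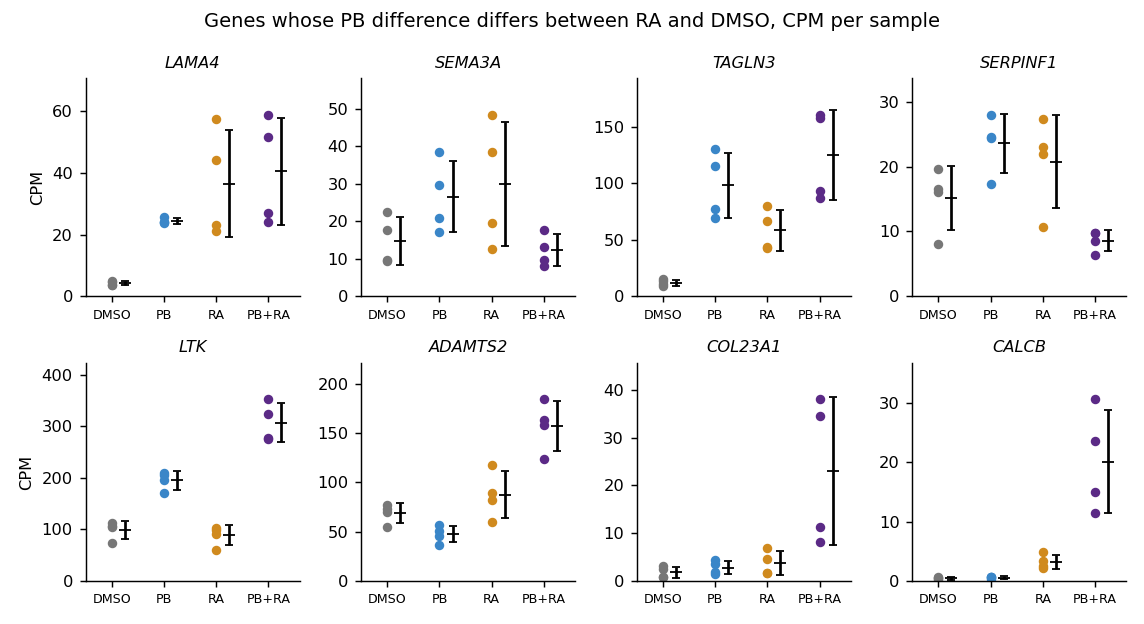
CPM in each DMSO (grey), PB (blue), RA (orange) and PB+RA (purple) sample for 8 genes with a called difference, with black bars for the mean and SD of 4 samples. LAMA4, SEMA3A, TAGLN3 and SERPINF1 have differences below 0 and LTK, ADAMTS2, COL23A1 and CALCB above 0, and LTK lies at 275 to 352 CPM in PB+RA and 60.3 to 103 CPM in RA.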

How the data were processed

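RNA was sequenced from 16 samples of SK-N-BE(2)C cells, polyA-selected and with a directional kit. The study describes its biological replicates as cells of different passage plated in independent experiments. The authors trimmed reads with TrimGalore 0.6.4 and deposited gene counts from STAR against hg19 (GRCh37). The submitters' processing notes give STAR 2.6.1d and the paper's resource list another release. The deposited CPM are those counts divided by the sample total and were used as levels. The gene annotation release and the strand column counted are not given in the sources used here. The authors' comparison tables (DESeq2 1.32.0 fold changes and adjusted p-values) were not used.

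Raw counts of all 16 samples were fitted with edgeR 4.0.16 (R 4.3.3) by quasi-likelihood, with group and replicate number as terms, TMM factors and filterByExpr. The fit was first tested on simulated data. Contrasts were PB+RA against RA, PB against DMSO, and the difference of both. The study's methods pair no samples by number. Deviations of same-numbered samples from their group means correlated at 0.38, 0.54, 0.47 and 0.42 for numbers 1 to 4. Unlike numbers within replicates 1 and 2 or within 3 and 4 correlated at 0.19 to 0.40. Those across the split correlated at -0.45 to -0.29, so much of the agreement followed the split and not the single number. The block was kept. With the block, level differences between replicate numbers are taken out. P-values therefore measure how evenly a group difference was seen across replicate numbers of 1 line, with the spread pooled over all 4 groups.

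Alternatives were a fit without the block or on the 8 samples, DESeq2 1.42.0, limma-voom (limma 3.58.1), RLE factors, other filters and fold minimums, a GC and length offset, replicates 1 and 2 or 3 and 4 alone, and leaving out each sample. Named genes were the 10 largest rises and falls (called, averaging 10 CPM or more, groups not overlapping), up to 3 called genes per list by size of change at the same mean, the G1 control genes, 11 retinoid genes, and the 5 largest differences each way. Other list members named in the text were chosen after their values were seen. The 24 lists and their members were chosen with earlier results of these data known. Of 804 list entries 791 matched a symbol and 735 were tested, and the rest were not analysed here. A few named genes are not reported here.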

Additional observations from a re-analysis of the deposited data

Results flagged for a closer look

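Within a group of 4 samples, 7 of 230 groups of named genes had 1 sample far from the other 3, where chance gives about 1 in 20. RA replicate 2 stood apart for TAFA3 (highest, 3.56 CPM), BRIP1 (lowest, 27.3 CPM) and CDKN2A (highest, 36.3 CPM). RA replicate 1 was the highest for RB1 (137 CPM). PB+RA replicate 2 was the highest for COL13A1 (61.7 CPM) and AQP1 (72.1 CPM), and PB+RA replicate 1 for CACNA1B (89.6 CPM).

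The response to PB differed by the test between cells with and without RA for 47 genes chosen by the naming rule. Values are the log2 fold change on RA minus that on DMSO. Differences below 0 among the largest falls and the genes of the cell cycle, replication, repair and chromatin were FAM111B -1.44, E2F2 -1.49, POGLUT3 -0.60, WDR76 -1.02, AURKB -1.13, MKI67 -1.13, CCNE2 -1.0, TYMS -1.04, CDCA3 -1.06, FOXM1 -0.98, MYBL2 -1.18, CLSPN -0.86, GINS2 -1.08, PCNA -0.87, RRM2 -1.25, TK1 -0.91, KIF20A -1.17, FANCA -0.61, BRIP1 -0.65, LMNB1 -0.99, HMGB2 -0.87, CCNE1 -0.56, CDK6 -0.56 and CDC25A -0.68. Neuronal, sterol and apoptosis genes with a difference below 0 were STMN4 -1.23, SYT5 -0.66, CADPS -0.64, TH -0.76, HMGCS1 -0.53, BBC3 -1.07 and PMAIP1 -0.80, and the largest called ones below 0 at a mean of 10 CPM or more over 16 samples were LAMA4 -2.46, SEMA3A -2.13, LINC02458 -2.12, TAGLN3 -1.95 and SERPINF1 -1.94. Differences above 0 were those of CALCB 2.25, SLC6A19 2.06, COL23A1 1.98, PLSCR1 1.64, SST 1.50, ADAMTS2 1.39, AQP1 1.35, ID1 0.93, LTK 0.81, EMILIN3 0.76 and CRABP2 0.54. The causes were not tested.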

How the results depend on the processing

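The counts of 2517 higher and 2349 lower genes became 1296 and 1319 at a mean of at least 10 CPM, 4963 and 5120 with no fold minimum, and 933 and 912 with a log2 fold minimum of 1, settings that change the genes tested or the threshold itself. Leaving out 1 sample gave 2277 to 2673 higher and 2219 to 2462 lower genes. The 190 genes with a difference above 0 became 287 with no low-count filter, 91 at 10 CPM, 308 in replicates 3 and 4 alone, 295 with the GC and length offset, 594 with no fold minimum and 61 with a minimum of 1, and 163 to 251 when 1 sample was left out. The 981 below 0 became 577, 1924 and 302 at 10 CPM, no fold minimum and a minimum of 1, and 754 to 927 when 1 sample was left out. Without the replicate block 2291 genes were higher and 2178 lower, and the difference was above 0 in 64 and below 0 in 466. The block also decided the calls of CRABP1 (-0.67, adjusted p = 0.085 without it), CYP26A1, DCN and LINC02458 and the differences of SLC6A19, SST, AQP1 and LINC02458. The rise of CYP26A1 was absent in replicates 1 and 2 alone (log2 fold change -0.000949, edgeR adjusted p = 0.99). Of the 115 named genes, 104 had the same call in each of 18 alternatives for PB+RA against RA, fold minimums not counted. The cause of these changes was not tested. Depth limits genes near 0.113 to 0.154 CPM, where a sample holds 3 counts.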
